A study of Mus musculus with 8 samples.

Results

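The genes described here are the feedback arm of the ERK pathway: the Sprouty genes Spry1, Spry2 and Spry4, the Spred genes Spred1 and Spred2, the MAP kinase phosphatase genes Dusp4, Dusp5 and Dusp6, and the ETS transcription factor genes Etv4 and Etv5. They were taken by symbol from the deposited expression table, and each of the 10 symbols matched 1 of its 19301 genes. The mRNA came from primary mouse tendon stem cells (TSCs), cells grown out of digested patellar tendon, and was sequenced with a stranded mRNA kit. After 4 days, 4 biological replicates had been kept in low glucose medium (LG, 5.5 mM glucose with the DMSO vehicle) and 4 in high fat, high glucose medium (HFHG, raised glucose with 300 µM palmitic acid, a saturated fatty acid). The comparison asks how a medium that imitates the sugar and fat load of diabetes changes the transcripts of the cells. Glucose and palmitic acid were raised together, so their parts in any difference cannot be told apart.

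Growth factors that bind receptor tyrosine kinases switch on Ras, which passes the signal through Raf and MEK to the kinases ERK1 and ERK2. Active ERK enters the nucleus and raises the transcription of genes whose products damp the same signal, so transcripts of this kind are widely used as a readout of ERK activity. Sprouty and Spred proteins act at the level of Ras and Raf, Dusp4, Dusp5 and Dusp6 remove phosphate from the kinases themselves, and Etv4 and Etv5 carry the response on to further genes. In tendon, fibroblast growth factors acting through ERK take part in the formation of tendon progenitors. The GO annotation in the table placed 7 of the 10 genes (the Sprouty and Spred genes, Dusp4 and Dusp6) in the term for negative regulation of the ERK1 and ERK2 cascade, which holds 80 genes of the table.

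The feedback genes did not move as a block. Spry1 was 2.74-fold higher in HFHG, Dusp4 was at 0.362 and Dusp5 at 0.476 of its LG level, and Spry2, Spry4 and Spred2 moved by smaller steps. Spred1, Dusp6, Etv4 and Etv5 did not pass the test. All 10 genes passed the filter on low values. In limma on log2(FPKM + 0.1), with p-values adjusted over 11710 genes by the Benjamini-Hochberg method, 3 of 10 were higher and 3 of 10 lower at an adjusted p below 0.05. Among all genes tested, 34.0% were higher and 30.8% lower, 64.8% in either direction, so the count of feedback genes called was no larger than in the table as a whole. The median log2 fold change of the 10 genes was 0.040 against 0.017 over all genes, and the median of its absolute value was 0.21 against 0.25. By the threshold of the study's methods, more than 2-fold with an unadjusted p below 0.05, 3 of 10 genes were called, beside 5.33% of all genes tested. The values of the groups did not overlap for 7 of 10 genes, beside 59.2% of all genes tested. For these 7 the two-sided p of an exact permutation test, in which the 8 libraries can be divided in 70 ways, was 0.0286, the smallest it can be. The replicates are described as biological ones, and the p-values measure the spread between these 8 libraries.

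**Figure D1:**
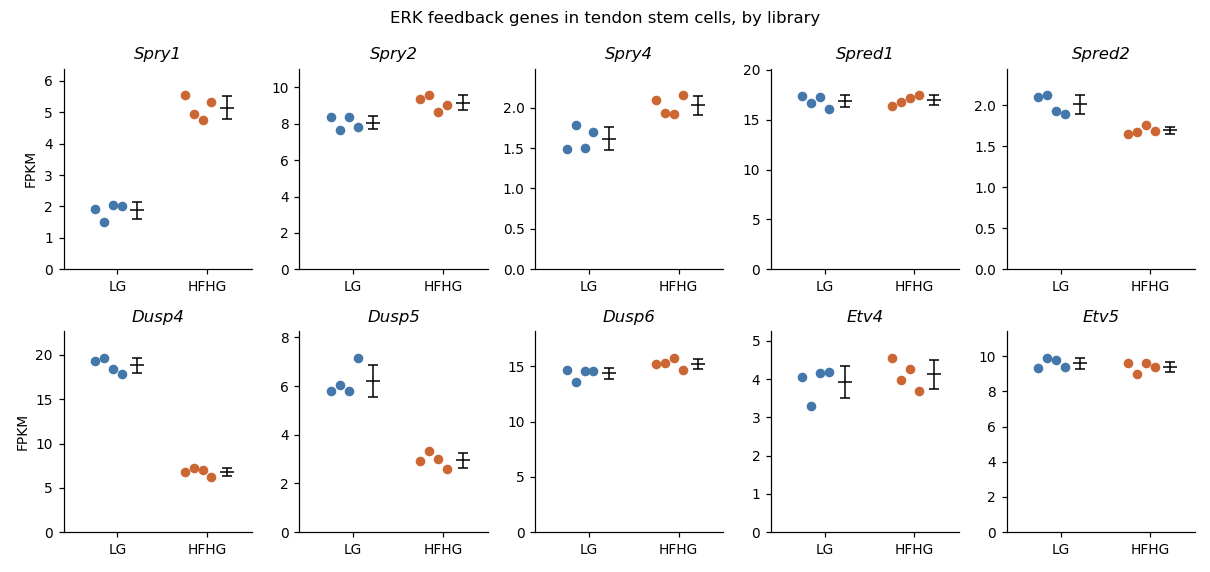
FPKM (vertical axis, from 0, its own scale for each gene) of the 10 feedback genes in the 4 LG (blue) and 4 HFHG (orange) libraries, in the order of the replicate numbers; the bars show the mean ± SD. Spry1 sits between 4.75 and 5.56 in HFHG and between 1.49 and 2.06 in LG, Dusp4 and Dusp5 show the opposite order, and the points of Spred1, Etv4 and Etv5 overlap between the groups.

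The library totals behind the FPKM, recovered from the values, were 34308108 to 37362725 fragments, which are called reads here and need not be all that were sequenced. On this scale 133 to 4544 reads stood behind a value of these genes. TSCs were checked by their markers. All 16 tendon and stromal markers were above the filter, 12 of them higher and 3 lower in HFHG, with Scx at 2.27 ± 0.558 FPKM in HFHG and 1.45 ± 0.336 in LG (SD, n = 4) and Col1a1 at 529 ± 8.68 and 206 ± 3.95. Tnmd, a marker of mature tendon cells, was low, at 1.10 ± 0.0908 FPKM in HFHG and 0.614 ± 0.298 in LG. The tendon transcription factor gene Mkx was among the 3 that were lower, at 6.73 ± 0.536 FPKM in HFHG and 8.62 ± 0.691 in LG (log2 fold change -0.35, limma adjusted p = 7.49e-04). Macrophage and leukocyte markers were present too: all 10 were above the filter and none was at 0, with Lyz2 at 1637 ± 19.4 FPKM in HFHG and 1765 ± 32.6 in LG. Of these 10, 8 stood lower and 1 higher in HFHG, and the median of their log2 fold changes was -0.41. Their summed level, most of it Lyz2, was 1798 to 1847 FPKM in HFHG and 1980 to 2068 in LG. C1qa (18.6 ± 0.549 and 36.6 ± 2.68 FPKM, -0.97), Itgam (-0.69), C1qb (-0.68) and Tyrobp (-0.62) fell further than Lyz2 (-0.11). The sum of the tendon and stromal list went the other way, from 3787 to 3850 FPKM in LG to 5408 to 5475 in HFHG. Of 7 endothelial markers 2 reached the filter, and the sum was 4.68 to 6.09 FPKM in HFHG and 3.45 to 4.91 in LG. Only Acta1 of the muscle markers and only Fabp4 of the adipocyte markers reached it, with sums of 0.759 to 1.70 and 66.7 to 73.1 FPKM in HFHG and 3.19 to 4.06 and 23.7 to 29.7 in LG. Myod1, which defines the muscle lineage, was listed at 0 in all HFHG libraries and at 0.0195 ± 0.0298 FPKM in LG. Pecam1, which defines endothelial cells, was at 0.152 ± 0.0462 FPKM in HFHG and 0.108 ± 0.0226 in LG. The part of these shifts in the differences of the feedback genes was not tested. In a bulk sample, fewer cells of a type and less RNA per cell cannot be told apart.

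To show the DNA at which the genes that changed most begin, the bases before the transcription start are printed for Spry1 and Dusp5, and for Dusp6 as the phosphatase gene that did not pass the test. Sequences are from RefSeq on the build GRCm38.p6, 5′ to 3′ on the strand of the gene, which is the plus strand for all 3. Promoters of 7 of the 10 genes were used (Spry1, Spry2, Spred1, Spred2, Dusp5, Dusp6 and Etv5, the last with a pair of starts), and Spry4, Dusp4 and Etv4 are named only. Capitals mark the matches of the motifs searched. The Dusp5 stretch was ended at the first annotated base of the gene in GENCODE, which lies before the RefSeq start.
Spry1 (chr3:37639697-37639946): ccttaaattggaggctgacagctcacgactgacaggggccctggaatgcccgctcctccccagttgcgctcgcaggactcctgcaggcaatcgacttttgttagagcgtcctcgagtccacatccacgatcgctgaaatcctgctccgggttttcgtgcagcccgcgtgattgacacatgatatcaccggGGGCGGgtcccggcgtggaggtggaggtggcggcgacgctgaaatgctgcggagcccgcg
Dusp5 (chr19:53528895-53529108): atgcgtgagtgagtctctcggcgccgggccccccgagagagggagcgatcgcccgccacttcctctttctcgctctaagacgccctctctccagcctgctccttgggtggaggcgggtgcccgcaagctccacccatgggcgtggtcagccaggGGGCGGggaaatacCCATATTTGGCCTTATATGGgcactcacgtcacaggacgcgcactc
Dusp6 (chr10:99262981-99263230): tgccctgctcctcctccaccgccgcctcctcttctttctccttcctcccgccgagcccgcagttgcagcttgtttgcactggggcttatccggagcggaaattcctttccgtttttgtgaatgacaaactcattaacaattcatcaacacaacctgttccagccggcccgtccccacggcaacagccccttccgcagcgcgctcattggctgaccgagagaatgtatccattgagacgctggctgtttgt
The motifs, searched on both strands in the 250 bases before each RefSeq start, were an ETS motif (CCGGAA), the cAMP response element (TGACGTCA), the AP-1 motif (TGANTCA), the GC box (GGGCGG), the E-box (CACGTG) and the CArG box, the site of serum response factor. In the Dusp5 window there were 2 CArG boxes that directly follow each other, beginning at -82 and -72 from the RefSeq start, and a GC box at -96. A CArG box was found in 1.47% of all 32851 RefSeq promoters of the same length and in none of the other 7 windows of these genes. The Spry1 window held 1 GC box, at -60, and GC boxes were also found before Spred1, Spred2 and the upstream start of Etv5, beside 32.7% of all promoters. The Dusp6 and Spry2 windows held no match. The letters of the ETS motif were in none of the 8 windows, beside 12% of all promoters, and neither were the cAMP response element (1.55%), the AP-1 motif (6.75%) or the E-box (6.02%). These matches are descriptions of the letters in a short window and not of bound sites.

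Of the Sprouty genes, which encode inhibitors of receptor tyrosine kinase signalling that are themselves brought to the membrane on stimulation, all 3 were higher in HFHG. Spry1 (NCBI gene 24063, chr3:37639947-37644598, plus strand, GRCm38) was at 5.56, 4.96, 4.75 and 5.32 FPKM in HFHG replicates 1 to 4 and at 1.93, 1.49, 2.06 and 2.03 in LG replicates 1 to 4. Every HFHG library was far above every LG library. The means were 5.15 ± 0.363 and 1.88 ± 0.262 FPKM (SD, n = 4), and the log2 fold change was 1.42 (SE 0.0990, limma adjusted p = 6.39e-08). By the size of this change Spry1 ranked 254 of the 11710 genes tested, with 2.16% of genes changing more. Counted as reads, 419 to 509 in HFHG stood against 133 to 179 in LG.

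Spry2 (chr14:105891947-105896819, minus strand), the most highly expressed Sprouty gene in both groups, was at 9.38, 9.60, 8.67 and 9.03 FPKM in HFHG and at 8.38, 7.66, 8.36 and 7.85 in LG. The groups lay next to each other without overlap, the lowest HFHG library just above the highest LG library. The log2 fold change was 0.18 (SE 0.0507, 95% interval 0.073 to 0.29, limma adjusted p = 0.00669), and 60.6% of all genes tested changed more. Spry4, another inhibitor of the same family, was in HFHG at 2.09, 1.94, 1.92 and 2.16 FPKM. Its LG values were 1.49, 1.78, 1.5 and 1.70, all below those of HFHG. The difference of 0.31 on the log2 scale (SE 0.0886) passed the test (limma adjusted p = 0.00802), but not after quantile normalization, where it was 0.18 with an adjusted p of 0.0802. The fourth mouse Sprouty gene, Spry3, was at 1.20 ± 0.160 FPKM in HFHG and 1.18 ± 0.0950 in LG and did not pass the test (log2 fold change 0.017, limma adjusted p = 0.903).

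Within the Sprouty family the change was unequal. The ratio of 2 genes in the same library does not depend on how the libraries were scaled, and 8 such pairs within families were compared with exact two-sided permutation tests, adjusted over the 8 pairs. Pairs that share a gene are not independent. How often the ratios of other pairs of genes part the groups was not computed. Of all single genes tested, 59.2% did not overlap between the groups. The log2 ratio of Spry1 to Spry2 was -0.94 to -0.75 in HFHG and -2.28 to -1.90 in LG, a difference of 1.23 (SE 0.0954, adjusted exact permutation p = 0.0381). Against Spry4 the ratio of Spry1 rose by 1.10 (SE 0.152) with the same adjusted p in the exact test, from -0.24 to 0.44 in LG to 1.26 to 1.37 in HFHG. Spry2 and Spry4 kept a ratio of 2.02 to 2.25 in HFHG and 2.05 to 2.41 in LG, where the groups overlapped and the difference was -0.13 (SE 0.104, exact permutation p = 0.257, adjusted 0.294). The differences between single libraries of the groups ran from -0.39 to 0.20. The summed FPKM of Spry1, Spry2 and Spry4, without Spry3, was 16.3 ± 0.715 in HFHG and 11.6 ± 0.440 in LG. Spry1 made up 31.5 ± 1.19% and 16.2 ± 1.76% of it.

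Spred proteins carry an EVH1 domain and a Sprouty-related domain, and Spred1 is known for bringing neurofibromin, which switches Ras off, to the membrane. Spred1 (chr2:117121374-117182279, plus strand) was the most abundant of the 10 genes in HFHG, with 16.4, 16.8, 17.2 and 17.5 FPKM, and its LG values of 17.4, 16.7, 17.3 and 16.1 covered the same range. The log2 fold change was 0.0091 with a 95% interval of -0.076 to 0.094 (limma adjusted p = 0.850), with at least 4060 reads behind each value. Spred2 (chr11:19924375-20024026, plus strand) was lower in HFHG, at 1.65, 1.68, 1.76 and 1.69 FPKM against 2.1, 2.13, 1.93 and 1.89 in LG. All 4 HFHG values lay below all 4 LG values. The level fell by 0.23 on the log2 scale (SE 0.0792, limma adjusted p = 0.0204), and this call was not stable: rescaling all libraries to the same sum gave -0.18 (adjusted p = 0.0857), and leaving out LG replicate 1 or LG replicate 2 gave -0.21 (adjusted p = 0.0564 and 0.0570). The log2 ratio of Spred1 to Spred2, which needs no scaling, was 3.21 to 3.30 in HFHG and 2.91 to 3.10 in LG, a difference of 0.24 (SE 0.0425, adjusted exact permutation p = 0.0381). Spred3, the remaining member of the family and not among the 10 genes, was lower as well, at 6.42 ± 0.294 against 7.55 ± 0.451 FPKM (log2 fold change -0.23, limma adjusted p = 0.00349).

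The dual-specificity phosphatases of this group differ in place and target. Dusp4 and Dusp5 act in the nucleus, where Dusp5 is selective for ERK and also holds it there, and Dusp6 acts on ERK in the cytoplasm. Dusp4 (chr8:34807297-34819894, plus strand) was at 6.80, 7.20, 7.06 and 6.19 FPKM in HFHG and at 19.3, 19.7, 18.4 and 17.9 in LG. The highest HFHG library was far below the lowest LG library, and the spread within each group was small beside this gap. The means were 6.81 ± 0.446 and 18.8 ± 0.800 FPKM (SD, n = 4), or 549 to 618 reads against 1548 to 1732. The log2 fold change was -1.45 (SE 0.0534, 95% interval -1.57 to -1.34, limma adjusted p = 1.45e-10).

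Dusp5 (chr19:53529109-53542431, plus strand) was at 2.91, 3.32, 3.0 and 2.58 FPKM in HFHG and at 5.78, 6.04, 5.80 and 7.17 in LG. LG replicate 4 was the highest and HFHG replicate 4 the lowest, and the groups did not overlap. The log2 fold change was -1.05 (SE 0.0884, limma adjusted p = 3.91e-07). It lies close to the 2-fold threshold, and was -0.99 without HFHG replicate 4, -0.97 without LG replicate 4, -0.99 after rescaling to the same sum and -0.86 with a pseudocount of 1, so that 2 and not 3 feedback genes were past 2-fold in each of these. The adjusted p stayed below 0.05 in all of them.

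Dusp6 (chr10:99263231-99267489, plus strand), often taken as the most direct transcript readout of ERK activity, stood close in both groups. Its values were 15.2, 15.3, 15.8 and 14.7 FPKM in HFHG and 14.7, 13.6, 14.6 and 14.6 in LG. The groups touched without overlap, with LG replicate 2 the lowest. The log2 fold change was 0.085 (95% interval -8.3e-04 to 0.17) and did not pass the test (limma adjusted p = 0.0763), although it did after rescaling to the same sum (0.14, adjusted p = 0.00620). Without LG replicate 2 the change was 0.060 (adjusted p = 0.205).

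Each of the 3 ratios between the phosphatase genes, which share genes and are not independent, passed the exact permutation test with an adjusted p of 0.0381. In LG the log2 ratio of Dusp4 to Dusp6 was 0.29 to 0.52, and in HFHG it was -1.24 to -1.07, a difference of -1.54 (SE 0.0607). For Dusp5 to Dusp6 the difference was -1.13 (SE 0.0958). Dusp4 also fell relative to Dusp5, by 0.41 on the log2 scale (SE 0.10), with 1.09 to 1.23 in HFHG and 1.31 to 1.72 in LG. The summed FPKM of the 3 genes was 25.0 ± 1.08 in HFHG and 39.4 ± 0.450 in LG. Dusp4 accounted for 47.8 ± 2.05% of that sum in LG and 27.2 ± 0.661% in HFHG, and Dusp6 for 36.5 ± 1.25% and 61.0 ± 1.43%.

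**Figure D2:**
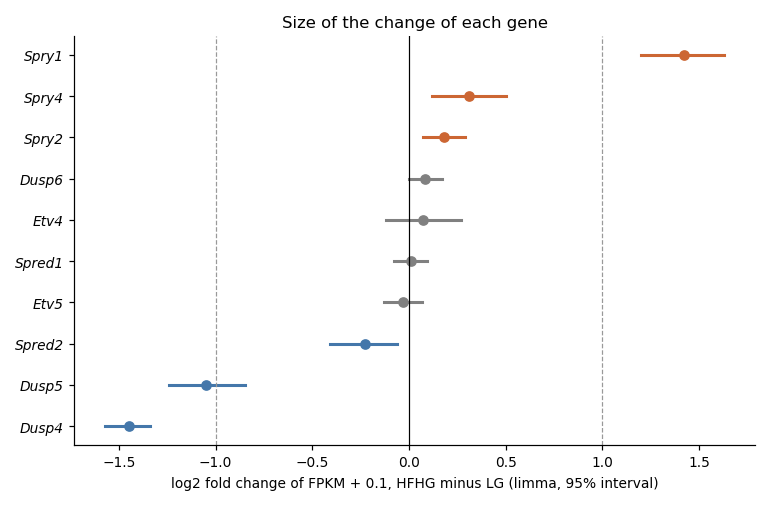
Log2 fold change of FPKM + 0.1 (horizontal axis, HFHG minus LG) of each feedback gene with its 95% interval from limma, ordered by size; orange is higher, blue lower and grey not past an adjusted p of 0.05, and the dashed lines mark 2-fold. Spry1 at 1.42 stands at one end and Dusp5 at -1.05 and Dusp4 at -1.45 at the other, with the remaining 7 genes between -0.23 and 0.31.

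**Figure D3:**
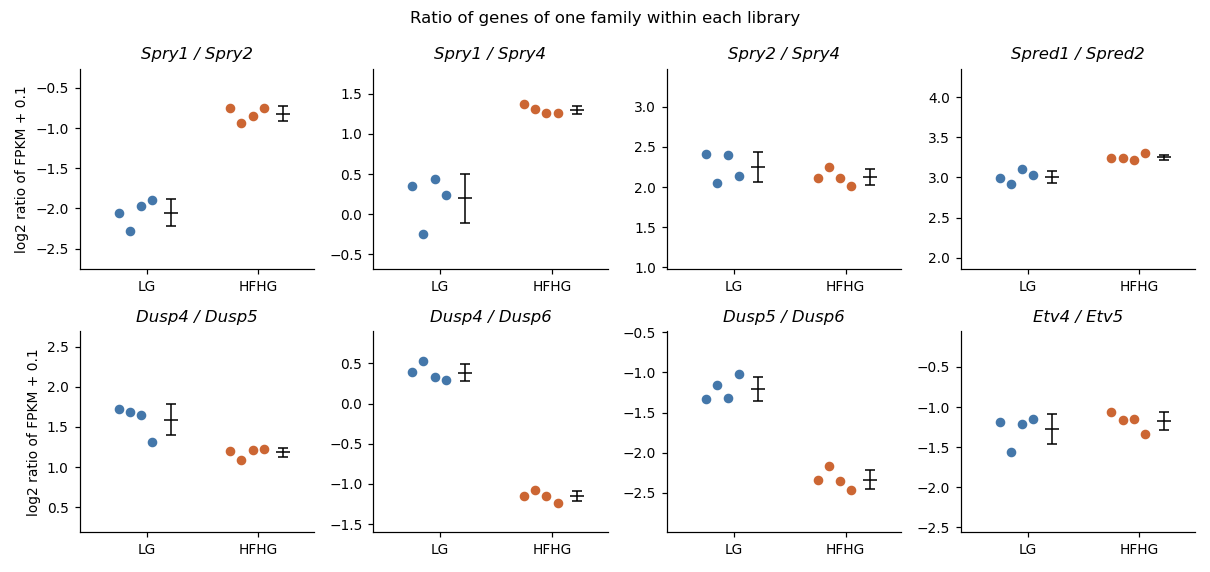
Log2 ratio of FPKM + 0.1 (vertical axis, each panel spanning the same length) of 2 genes of a family in the 4 LG (blue) and 4 HFHG (orange) libraries, with the mean ± SD; the points are single libraries. The groups are apart in 6 of the 8 panels, furthest for Dusp4 to Dusp6 (0.39 ± 0.101 in LG, -1.15 ± 0.0674 in HFHG), and overlap for Spry2 to Spry4 and Etv4 to Etv5. Panels that share a gene are not independent, and the share among other pairs of genes was not computed.

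Etv4 and Etv5 are transcription factors of the PEA3 group, which bind ETS motifs and are induced by fibroblast growth factor signalling in many tissues. Etv4 (chr11:101769742-101785371, minus strand) was at 4.56, 3.98, 4.26 and 3.68 FPKM in HFHG and at 4.06, 3.30, 4.17 and 4.18 in LG, with overlapping groups. Its log2 fold change was 0.070 with a 95% interval of -0.12 to 0.27 (limma adjusted p = 0.508). Etv5 (chr16:22381309-22439719, minus strand) overlapped between the groups too, at 9.60, 9.0, 9.59 and 9.41 FPKM in HFHG and 9.33, 9.92, 9.80 and 9.36 in LG. The interval of its change, -0.13 to 0.065 around -0.030 (limma adjusted p = 0.560), was narrower than that of Etv4. The log2 ratio of Etv4 to Etv5 was -1.33 to -1.06 in HFHG and -1.56 to -1.15 in LG, a difference of 0.10 (SE 0.111, exact permutation p = 0.457). The related Etv1, also of the PEA3 group, was at 1.07 ± 0.109 FPKM in HFHG and 1.27 ± 0.0294 in LG (log2 fold change -0.23, limma adjusted p = 0.0606), a gene named after its value was seen.

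Levels of different genes can be set side by side only per length, and here the length matters. On the deposited FPKM scale the order in HFHG was Spred1, Dusp6, Etv5, Spry2, Dusp4, Spry1, Etv4, Dusp5, Spry4 and Spred2, and only the neighbours Etv5 and Spry2 overlapped between libraries. In LG it was Dusp4, Spred1, Dusp6, Etv5, Spry2, Dusp5, Etv4, Spred2, Spry1 and Spry4, where Spred2 with Spry1 and Spry1 with Spry4 overlapped. From LG to HFHG, Dusp4 went from the highest place to the fifth on this scale, and Spry1 from the ninth to the sixth. The gene lengths behind the FPKM, as recovered with the reads, were however 37937 bases for Spred2, 10374 for Spry4 and 4440 for Spry2, which is 8.53, 2.18 and 2.13 times the longest GENCODE transcript of the gene. For the other 7 genes this ratio was 0.734 to 1.24. Divided by the length of the longest transcript instead, Spred2 was at 14.4 ± 0.406 in HFHG and 17.2 ± 1.03 in LG on the FPKM scale. It made up 41.9 ± 0.625% and 46.3 ± 1.39% of the sum of Spred1 and Spred2, against 9.08 ± 0.211% and 10.7 ± 0.531% as deposited. Spred3 is not in this sum. This division assigns all reads of a gene to that transcript, which was not tested, so it can overstate the level. Spred1 was then the highest in both groups, overlapping with Spry2 in HFHG. Dusp4 went from the fourth place in LG to the sixth in HFHG on that scale. In LG it overlapped with its neighbours Spry2 and Dusp6, so its place there is not sharp. Spry1 went from the tenth place to the seventh, where it overlapped with Spry4. The share of Spry1 in the sum of Spry1, Spry2 and Spry4 was 16 ± 0.738% in HFHG and 7.41 ± 0.885% in LG. Fold changes of a gene and differences of log2 ratios between the groups do not depend on the length, apart from the pseudocount. Where along the counted length the reads lay cannot be seen from the deposited values. The fold changes of Spred2, Spry4 and Spry2 are therefore those of all reads counted, which may include reads from outside the transcript.

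To list transcripts with a pattern like that of the feedback genes, the 3 genes nearest to each across the 8 libraries were found. The measure was the Euclidean distance between log2(FPKM + 0.1) values after centring each gene on its mean. For a gene with a large change this distance rests mostly on the difference between the 2 groups. Similar fold changes of its neighbours therefore follow from the measure, and shared regulation was not tested. The nearest to Spry1 were Lipe (distance 0.244), which encodes hormone-sensitive lipase, Gzme (0.307) and Sema3f (0.337), with log2 fold changes of 1.38, 1.39 and 1.30. Dusp4 was nearest to Hk2 (0.163), the gene of the glycolytic enzyme hexokinase 2, followed by Hmga1 (0.186) and Anpep (0.211), at -1.49, -1.42 and -1.44. For Dusp5 they were Bcl2a1b (0.174), Pla2g12a (0.221) and Hal (0.239), at -1.05, -1.01 and -1.10. Spred1 lay nearest to Igf1r (distance 0.0393, log2 fold change 0.021) and Etv5 to Dctn4 (0.0451, -0.054). Gzme and Bcl2a1b belong to clusters of near-identical genes, so their reads are uncertain.

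The other genes of the pathway came from lists whose counts are given beside the 64.8% of all genes called. The growth factor ligands leaned upwards: of 19 tested, 12 were higher and 3 lower, with a median log2 fold change of 0.51 against 0.017 for all genes. Fgf2 was at 3.24 ± 0.387 FPKM in HFHG and 1.04 ± 0.308 in LG (log2 fold change 1.58, limma adjusted p = 1.91e-06), Fgf10 at 36.3 ± 1.06 and 15.8 ± 0.707 (1.20), Igf1 at 2.01 ± 0.155 and 0.785 ± 0.140 (1.27) and Fgf7 at 82.6 ± 2.20 and 49.0 ± 1.38 (0.75). Csf1, the most abundant ligand, moved little (450 ± 3.68 and 434 ± 3.03 FPKM, 0.051). Of 15 receptors tested 9 were higher and 2 lower, with Pdgfra at 22.2 ± 0.254 and 9.59 ± 0.263 FPKM (1.20, adjusted p = 2.19e-11) and Egfr at 14.8 ± 0.596 and 8.61 ± 0.507 (0.78), while Fgfr1, a main receptor of the fibroblast growth factors, fell from 117 ± 1.41 to 83.0 ± 1.14 (-0.49, adjusted p = 1.35e-09). Fgfrl1 (0.49) and Axl, the most abundant receptor (0.15), were higher.

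The kinases and adaptors between receptor and ERK were split. Of 28 tested 13 were higher and 9 lower, with a median of 0.047. Higher were the adaptor genes Gab1 (1.32 ± 0.103 in HFHG and 0.701 ± 0.0359 FPKM in LG, 0.83), Frs2 (0.50) and Frs3 (0.48), which link fibroblast growth factor receptors to Ras. Lower were Mras (13.3 ± 0.920 and 20.2 ± 0.673 FPKM, -0.61) and Map2k1, which encodes MEK1 and was the most abundant of the list (101 ± 1.19 and 137 ± 2.61 FPKM, -0.44, limma adjusted p = 5.04e-09). Of 12 p38 and JNK kinase genes tested, 7 were higher and 4 lower with a median of 0.21, among them Map3k7 (0.58), Mapk11 (-0.71), Mapk12 (-0.54), Mapk8 (-0.39) and Map2k3 (0.38), the most abundant.

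Among 19 further genes tested from a list of inhibitors and modulators of Ras and ERK, 8 were higher and 5 lower, with a median of 0.12. Rgs4, which speeds the shut-off of G proteins, showed a larger change than any of the 10 feedback genes, from 4.10 ± 0.166 FPKM in LG to 21.0 ± 0.116 in HFHG (log2 fold change 2.33, limma adjusted p = 3.48e-13). Flrt3, on this list as a modulator and not an established inhibitor, was higher (0.66). Errfi1, the feedback inhibitor of the EGF receptor (36.7 ± 0.292 and 50.3 ± 0.727 FPKM, -0.45), Socs3 (-0.41) and Pebp1 (-0.35), the most abundant, were lower. The other MAP kinase phosphatases showed 3 higher and 2 lower of 9 tested, with a median of -0.086. Dusp14 was at 5.09 ± 0.444 FPKM in HFHG and 2.67 ± 0.313 in LG (0.91), Dusp7, which like Dusp6 acts on ERK in the cytoplasm, at 6.98 ± 0.302 and 5.40 ± 0.130 (0.36), and Dusp3 at 22.2 ± 0.930 and 33.2 ± 0.896 (-0.58). Dusp9, a low gene named after its value was seen, was at 0.515 ± 0.0577 FPKM in HFHG and 1.35 ± 0.0649 in LG. Its log2 fold change of -1.24 (limma adjusted p = 7.92e-07) was the only one of this list past 2-fold. Dusp1, the most abundant phosphatase gene of the list and an immediate early gene, was at 56.1 ± 2.70 FPKM in HFHG and 56.4 ± 3.08 in LG (-0.0051, limma adjusted p = 0.924). Of 11 other ETS factor genes tested, 2 were higher (Elk3, 0.42, and Etv3, 0.35) and 4 lower, among them Ets2 (-0.50) and Elk1 (-0.47), with a median of -0.20.

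Other genes that ERK is known to induce were mostly lower: of 22 tested 5 were higher and 13 lower, with a median of -0.13. Myc was at 9.92 ± 0.994 FPKM in HFHG and 20.4 ± 0.974 in LG (log2 fold change -1.04, limma adjusted p = 2.18e-08), Lif at 5.84 ± 0.341 and 11.7 ± 0.429 (-0.99) and Hmga2 at 47.3 ± 1.02 and 87.2 ± 1.64 (-0.88). Fosb was higher, at 1.34 ± 0.113 and 0.748 ± 0.140 FPKM (0.78). The largest change of the list was upward, in Epha4, a low gene named after its value was seen. It was at 0.770 ± 0.0750 FPKM in HFHG and 0.254 ± 0.0369 in LG (1.30, limma adjusted p = 5.10e-06). By the GO annotation, with the 10 genes left out, negative regulators of the ERK1 and ERK2 cascade showed 16 higher and 22 lower of 52 tested (median -0.085), positive regulators 65 higher and 50 lower of 141 (median 0.064), and MAP kinase phosphatases 3 higher and 2 lower of 8 (median -0.045). The share called ran from 54.5% for the ETS factors to 91.7% for the p38 and JNK kinases. It was below the 64.8% of all genes for the ETS factors, the other MAP kinase phosphatases (55.6%) and the GO phosphatases (62.5%). For the remaining pathway and GO lists it was above. No list was tested as a set.

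**Figure D4:**
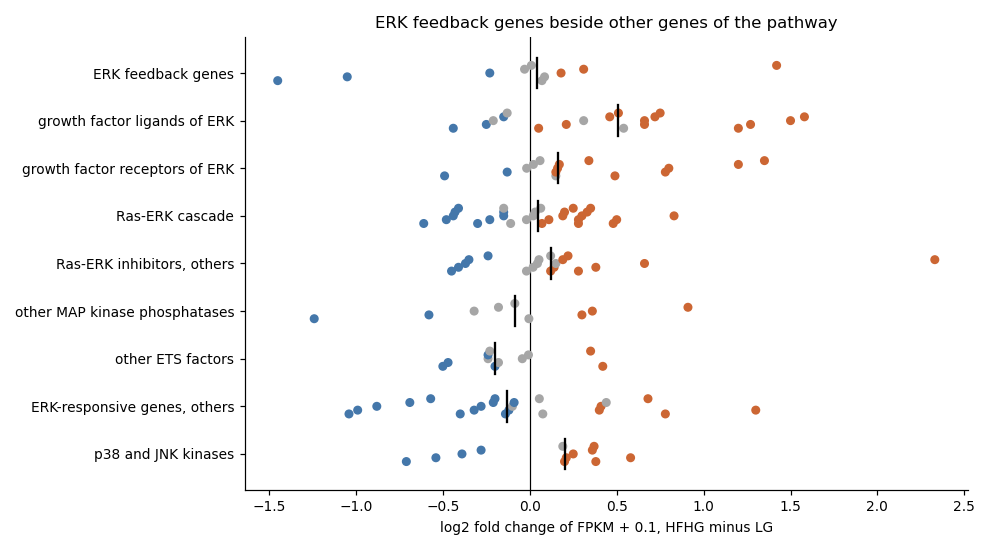
Log2 fold change of FPKM + 0.1 (horizontal axis, HFHG minus LG) of the 10 feedback genes and of the tested genes of 8 pathway lists, 1 point a gene; orange is higher, blue lower and grey not past an adjusted p of 0.05 in limma, and the black bar is the median of the list. The ligands have the highest median (0.51), Rgs4 at 2.33 is the point furthest to the right, and Dusp4 at -1.45 the point furthest to the left.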

How the data were processed

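The mRNA of 8 TSC libraries, 4 HFHG and 4 LG, was grouped by the sample labels. The authors deposited FPKM values of 19301 genes, with replicates not pooled. The submitters' processing notes name HISAT2 2.1.0 and mm10, while the counting program, the annotation, the use of strand in counting and any filters are not given in the sources used here. All columns of values were used.

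Genes with at least 0.5 FPKM in at least 4 of 8 libraries (11710) were tested with limma 3.58.1 in R 4.3.3 on log2(FPKM + 0.1), with lmFit, eBayes with an intensity trend and Benjamini-Hochberg adjustment. Fold changes on this scale understate the change of low genes. Whole reads were recovered from the FPKM for 11710 of 11710 tested genes (tolerance 0.02 reads), which gave the library totals of 34308108 to 37362725 and the gene lengths behind the FPKM. Gene positions and transcript lengths are from GENCODE M21 (GRCm38). Ratios within families were compared by exact permutation tests over 70 arrangements. The scripts were tested on simulated data.

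From each list, the genes named are up to 4 with the largest change among those with an adjusted p below 0.05, a mean of at least 1 FPKM and groups that did not overlap, and the most abundant. A gene that this rule names is not reported here. Scx, Tnmd, Mkx, Myod1, Pecam1, Etv1, Dusp9 and Epha4 were named after their values were seen. The genes and lists were chosen with earlier results of these data known. Alternatives were other pseudocounts, filters, scalings and eBayes options, a replicate block, each library left out, and, added after seeing the data, voom on the recovered reads.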

Additional observations from a re-analysis of the deposited data

Results flagged for a closer look

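In 2 of the 20 groups of 4 libraries (10 genes in HFHG and LG), the lowest library stood apart from the other 3 by more than Dixon's 95% criterion for the gap to the nearest library over the range of the group. Both were LG replicate 2: Dusp6 was at 13.6 FPKM there (gap over range 0.913) and Etv4 at 3.30 FPKM (0.863). Chance flags about 1 in 20 groups. Without this library the log2 fold change was 0.060 for Dusp6 (limma adjusted p = 0.205) and -0.0090 for Etv4 (adjusted p = 0.927), and neither gene passed the test with or without it.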

How the results depend on the processing

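Over 19 alternatives for each of the 10 genes, 184 of 190 fold changes kept their direction, where called, and their side of the adjusted p of 0.05. The 6 others were Spry4 after quantile normalization, Dusp6 after rescaling to the same sum, and Spred2 in 4 settings, 1 of them the replicate block (-0.23, adjusted p = 0.0512). The block changed no other call of these genes. Of the ratios within families, the 6 called at an adjusted p of 0.0381 kept their differences (Spry1/Spry2 1.23, Spry1/Spry4 1.10, Spred1/Spred2 0.24, Dusp4/Dusp5 -0.41, Dusp4/Dusp6 -1.54 and Dusp5/Dusp6 -1.13) but had an exact permutation p of 0.125 in the replicate block, the smallest that 4 pairs can give, so none could pass there. It gave 3841 genes higher and 3501 lower against 3983 and 3609 without it. No pairing by number was visible: the correlations of same-numbered libraries after removal of the group means were -0.0736 to -0.00558, and 0 of 4 HFHG libraries correlated best with its own number. The labels do not say whether a number marks a shared animal or day, and these values cannot decide it. All 247 counts over the pathway lists stayed within 1.5 times their value. A pseudocount of 1 reduced the genes past 2-fold from 624 to 303, because it shrinks the folds of low genes. Of the genes called, 52.5% were higher, and 46.6% to 61.0% over the scalings. Depth limits mainly Spry1 in LG and Dusp5 in HFHG, where the shallowest values rest on 133 and 171 reads.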
